A study of Mus musculus with 6 samples.

Results

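The proteasome genes of the mouse were examined in 3 induced pluripotent stem (iPS) cell lines, each set against a pool of RNA from embryonic stem (ES) cells. All genes whose symbol, current or older, begins with Psma, Psmb, Psmc, Psmd, Psme, Psmf or Psmg were taken. This gave 86 probes for 50 genes, out of 34186 probes for 18295 named genes. Of the 50 genes, 26 had 1 probe and 24 had several, and a gene with several is described by its brightest probe unless another is named. Nob1 (through an older symbol), Psmc3ip, Psme3ip1 and the pseudogene Psmb5-ps met the rule by name only and are not proteasome subunits. Psme2, Psme2b and Psmb11 had no named probe and were not analysed here.

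The proteasome degrades ubiquitin-tagged proteins. Its 20S core is a barrel of alpha and beta rings, in which the beta subunits Psmb5, Psmb6 and Psmb7 cut proteins, and its 19S cap has a base of ATPases that unfold substrates and a lid that removes ubiquitin. In immune cells, and in other cells exposed to interferon, Psmb8, Psmb9 and Psmb10 take the places of Psmb5, Psmb6 and Psmb7 to form the immunoproteasome. The PA28 activator of Psme1 and Psme2 is induced alongside, and the peptides produced are loaded onto class I major histocompatibility (MHC) molecules.

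The lines iPS1, iPS4 and iPS5 were each expanded from 1 reporter-positive colony of OG2 mouse embryonic fibroblasts, whose Oct4 reporter is a green fluorescent protein. These fibroblasts had received pMX retroviruses for c-Myc, Klf4, Sox2 and Oct4 together with the TFIID subunits TBP, TAF13, TAF12, TAF11, TAF10, TAF9, TAF7, TAF6, TAF5, TAF4b, TAF4 and TAF3. The ES cells also carried the OG2 reporter, and all cells grew with LIF on irradiated fibroblast feeders, so RNA of feeder cells may be present in every sample. Each line was hybridised against the ES pool on 2 arrays of opposite dye, with the iPS RNA in Cy5 on replicate 1 of iPS1 and iPS4 and on replicate 2 of iPS5, and in Cy3 on the other 3 arrays. No group received the reprogramming factors without the TFIID subunits, so no value below can be tied to either set.

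Values are log2 ratios of iPS over ES, so that 0 means equal signal and 1 means double signal in the iPS line. In bulk RNA, fewer cells of a type and less RNA per cell cannot be told apart. Within each dye, fewer gene probes exceeded background on the iPS5 arrays than on those of iPS1 and iPS4. In Cy5 these were 64.56% to 65.69% per channel on iPS5 arrays, against 81.18% to 87.08%. In Cy3 they were 47.44% to 47.82%, against 65.18% to 75.36%. Of the 86 probes, 69 were above background in both channels of all 6 arrays, against 17947 of all 41174 gene probes, and none was saturated. By limma, 29 of the 86 probes had a dye effect, against 18.5% of all probes. Of the pluripotency markers, all 12 were above background on all arrays. In the mean of the lines, Nanog and Sall4 were higher and Zfp42, Fgf4 and Tdgf1 lower than in the ES pool. In iPS1 alone, 3 of the 12 were called higher and 8 lower, with Pou5f1 (Oct4) at -0.51, against 21.5% and 21.2% of all genes by brightest probe.

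Of the 50 member genes, 13 passed the F test among the lines by their brightest probe, a share near the 25.2% of all genes. Of these 13, 4 were of the immunoproteasome and PA28, and they include the smallest p of all members, that of Psmb8. Psmb8, Psmb9, Psmb10 and Psme1 were higher in iPS1 than in the ES pool, than in iPS4 and than in iPS5, with Psmb8 3.77-fold over the ES pool and the other 3 genes 1.39- to 1.51-fold. In iPS4 and iPS5 the same 4 genes stood between -0.41 and 0.20 on the log2 scale. The regions upstream of these 4 genes are shown because the genes differed between the lines together. The 250 bases before each start, from RefSeq on GRCm38.p6, are given 5′ to 3′ on the strand of the gene in lower case. Capitals mark any match to GAAANNGAAA, the core of the interferon-stimulated response element, or to TTCNNNGAA, the interferon-gamma activated site bound by STAT factors, on either strand.
Psmb8 (chr17:34197945-34198194, plus strand): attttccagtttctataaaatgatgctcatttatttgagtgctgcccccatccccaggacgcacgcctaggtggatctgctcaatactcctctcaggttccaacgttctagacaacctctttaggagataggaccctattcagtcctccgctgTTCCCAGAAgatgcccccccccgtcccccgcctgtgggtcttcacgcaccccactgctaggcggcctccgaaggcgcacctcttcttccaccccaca
Psmb9 (chr17:34187331-34187580, minus strand): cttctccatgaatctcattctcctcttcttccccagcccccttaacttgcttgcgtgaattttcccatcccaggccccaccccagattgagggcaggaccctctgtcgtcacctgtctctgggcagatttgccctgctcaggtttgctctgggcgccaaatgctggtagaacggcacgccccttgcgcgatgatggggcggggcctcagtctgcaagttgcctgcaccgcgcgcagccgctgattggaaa
Psmb10 (chr8:105938393-105938642, minus strand): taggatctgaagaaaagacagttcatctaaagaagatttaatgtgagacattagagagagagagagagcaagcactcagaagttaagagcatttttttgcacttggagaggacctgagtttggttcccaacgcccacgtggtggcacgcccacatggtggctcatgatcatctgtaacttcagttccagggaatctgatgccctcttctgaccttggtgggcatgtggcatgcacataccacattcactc
Psme1 (chr14:55578244-55578493, plus strand): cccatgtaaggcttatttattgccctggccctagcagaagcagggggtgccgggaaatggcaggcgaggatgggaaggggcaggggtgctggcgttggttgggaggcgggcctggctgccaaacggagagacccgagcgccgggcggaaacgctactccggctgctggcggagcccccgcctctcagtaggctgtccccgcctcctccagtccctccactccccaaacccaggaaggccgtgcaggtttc

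Only the Psmb8 window among these 4 held a match, to the activated-site letters, from 97 to 89 bases before the start. The search took exact letters within 250 bases before the start only. Sites with other letters or farther away were not sought, so a window without a match may still have such sites. Over all 27025 genes with a promoter, 8.13% held the activated-site letters and 3.46% held the response-element letters. Of the 41 member genes with a promoter, 3 held the activated-site letters (Psmb8, Psmg1 and Nob1) and 3 held the response-element letters (Psmb3, Psmd4 and Psmd9). TGACNNNGC, the core of the element bound by the proteasome gene activator Nfe2l1, stood in 5 of them (Psmb5, Psmb6, Psmc6, Psmd12 and Psmd9) and in 11.5% of all genes. The Psmb9 window spans the interval to Tap1, which encodes a peptide transporter subunit and starts 226 bases away on the opposite strand. In the gene order of the assembly, Psmb9, Tap1, Psmb8 and Tap2 are neighbours within the MHC on chromosome 17.

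Psmb8 encodes LMP7, the immunoproteasome form of the subunit with chymotrypsin-like activity. Its log2 ratio was 1.83 and 2.00 on the iPS1 arrays, 0.08 and 0.32 on the iPS4 arrays and -0.05 and -0.16 on the iPS5 arrays. Both iPS1 arrays lay more than 1 log2 unit above the other 4, and the groups did not overlap. iPS1 exceeded iPS4 by 1.71 ± 0.0563 (SE; limma, adjusted p = 3.36e-05) and iPS5 by 2.02 ± 0.0563 (SE; adjusted p = 3.1e-05). Its F test among the 3 lines (adjusted p = 2.25e-05) ranked 16 of 41174 probes. A second Psmb8 probe gave 1.39 and 1.24 in iPS1, 0.23 and 0.10 in iPS4, and -0.13 and 0.00 in iPS5. On both probes iPS4 also stood above the ES pool (0.20, adjusted p = 0.0061 and 0.17, adjusted p = 0.0105).

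Psmb9 encodes LMP2 and stood at 0.69 and 0.49 in iPS1, 0.11 and 0.06 in iPS4, and -0.03 and 0.06 in iPS5. The iPS1 arrays were again above all others, and its F test gave an adjusted p of 0.00196. Psmb10, which encodes MECL-1, was at 0.53 and 0.42 in iPS1, -0.10 and -0.15 in iPS4, and -0.50 and -0.32 in iPS5 (F test, adjusted p = 0.00041). For Psmb10 the 3 lines were separate on all arrays: iPS1 was above the ES pool (adjusted p = 0.000129) and iPS5 below it at -0.41 (adjusted p = 0.000501), while iPS4 did not pass (adjusted p = 0.0503). Psme1, the alpha subunit of PA28, was at 0.62 and 0.42 in iPS1, 0.06 and -0.10 in iPS4, and -0.12 and 0.17 in iPS5 (F test, adjusted p = 0.00197). Its 2 iPS1 arrays did not overlap with the other 4. iPS4 and iPS5 differed for Psmb8 by 0.31 (adjusted p = 0.0182) and for Psmb10 by 0.29 (adjusted p = 0.0226), but Psmb9 and Psme1 did not pass between these 2 lines (adjusted p = 0.532 and 0.693).

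**Figure D1:**
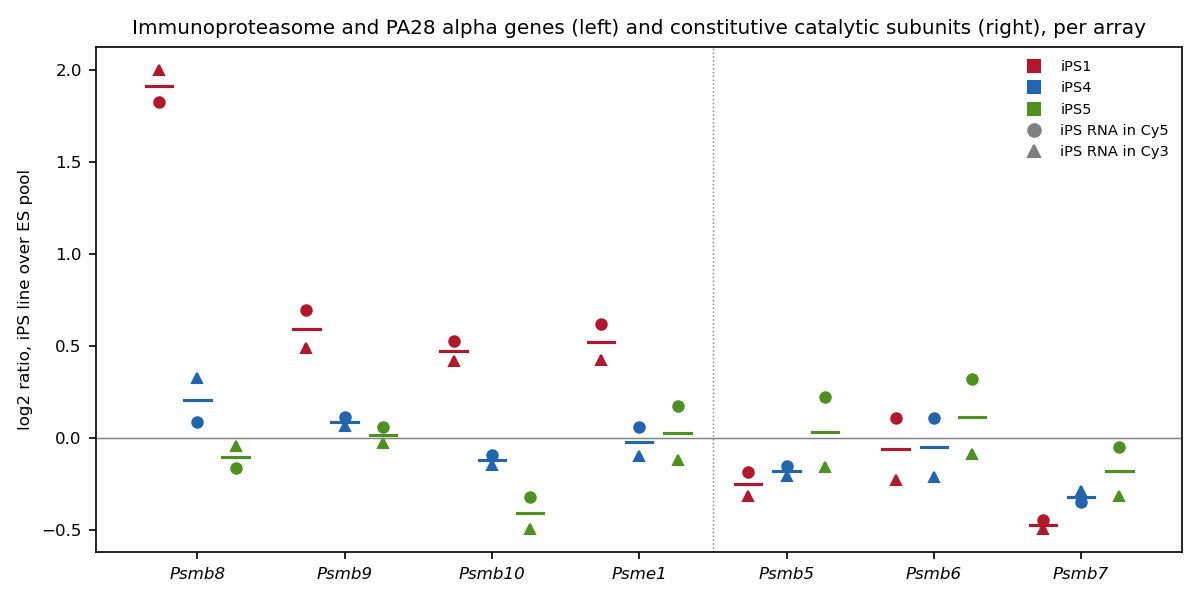
Log2 ratio of iPS line over ES pool (y axis) for the immunoproteasome and PA28 alpha genes and the constitutive catalytic subunits (x axis). Points are single arrays, by line (colour) and dye of the iPS RNA (shape), and bars are the means of the 2 arrays of a line. The iPS1 arrays stand above all others for Psmb8, Psmb9, Psmb10 and Psme1, and for Psmb5 and Psmb7 iPS1 has the lowest mean.

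The constitutive subunits that these replace stood at or below the ES level in iPS1. Psmb5, replaced by Psmb8, was at -0.19 and -0.32 in iPS1, -0.15 and -0.21 in iPS4, and -0.16 and 0.22 in iPS5. Psmb6, replaced by Psmb9, was at 0.11 and -0.23 in iPS1, 0.11 and -0.21 in iPS4, and -0.09 and 0.32 in iPS5. For Psmb6 the dye of the iPS RNA set the sign on every array (dye term, adjusted p = 0.00369). Psmb7, replaced by Psmb10, was at -0.45 and -0.50 in iPS1, -0.35 and -0.29 in iPS4, and -0.32 and -0.05 in iPS5. In iPS1, Psmb5 and Psmb7 were below the ES pool (adjusted p = 0.0133 and 0.000652). The F test among the lines was not passed by Psmb5, Psmb6 or Psmb7 (adjusted p = 0.0994, 0.0928 and 0.0983).

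The 2 channels were also read separately, as log2 levels after normalization between channels, which are comparable within a probe only. Psmb8 had 8.73 and 8.76 in the iPS1 channel, against 6.90 and 6.76 in the ES channel of the same arrays. In iPS4 it had 7.14 and 7.22, against 7.06 and 6.90 in the ES pool, and in iPS5 7.01 and 6.94, against 7.05 and 7.11 in the ES pool. Over all 6 arrays the ES level was 6.96 ± 0.132 (SD), so the high ratio lay in the iPS1 channel and not in a low ES reading. The ES levels of Psmb9, Psmb10 and Psme1 had SDs of 0.134, 0.0715 and 0.117 over the 6 arrays. In the iPS channels, iPS1 was again highest for each of these genes. Both Psmb8 probes were dim in the ES pool, and the brighter one was above background in both channels on all 6 arrays.

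**Figure D2:**
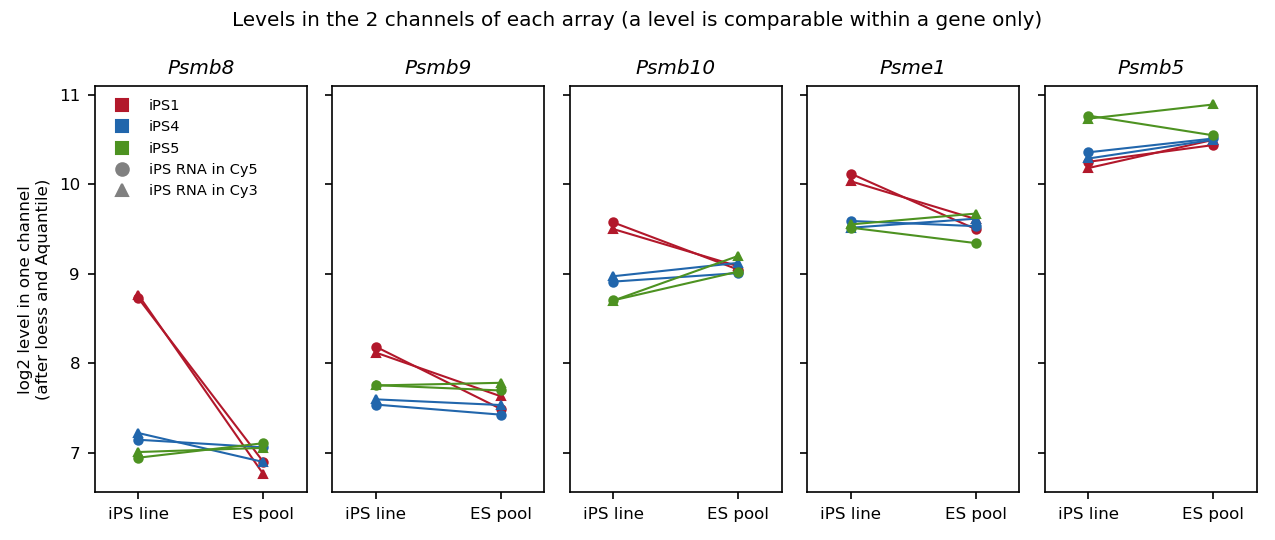
Log2 level in the iPS channel and the ES channel of each array (y axis, after loess and Aquantile normalization) for 4 immunoproteasome or PA28 genes and Psmb5. Each line joins the 2 channels of 1 array, coloured by iPS line. For Psmb8 the ES readings lie between 6.76 and 7.11 and only the 2 iPS1 readings, 8.73 and 8.76, stand apart.

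The authors' processed ratios gave the same order. With them Psmb8 was at 2.03 and 2.00 in iPS1, 0.19 and 0.22 in iPS4, and -0.17 and -0.14 in iPS5. Psme1 was at 0.52 and 0.53 in iPS1, and between -0.05 and 0.08 on the arrays of iPS4 and iPS5. In the mean of the 3 lines, none of these genes passed limma's test: Psmb8 was at 0.67 ± 1.09 (SD, n = 3 lines; adjusted p = 0.418), Psmb9 at 0.23 ± 0.314 (0.347), Psmb10 at -0.02 ± 0.45 (0.961) and Psme1 at 0.18 ± 0.301 (0.454). The authors' deposited table likewise gives a p-value of 1 for each of them.

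For iPS1, iPS4 and iPS5 taken singly, and for pairs of lines, the error comes from the 2 arrays of a line, which may share 1 RNA, so these p-values measure a spread that may be technical. In iPS1, 51 of the 86 probes differed from the ES pool (33 higher, 18 lower), against 36.3% of all gene probes. In iPS4, 42 did (27 higher, 15 lower), against 36.3%, and in iPS5, 27 did (20 higher, 7 lower), against 19.5%. Bright probes were called more often, so the shares were also taken over the 17947 probes above background in all channels. Of the 69 members among them, 62.3% differed in iPS1, 50.7% in iPS4 and 39.1% in iPS5, against 56.5%, 58% and 39.4% of all such probes. The F test among the lines called 24.4% of the 86 probes, against 20.0% of all probes, and 26.1% of the 69 bright members, against 33.2% of all such probes. By gene, 13 of 50 passed it, against 25.2% of all genes. In iPS1 the member shares lie above both probe backgrounds. In iPS4, iPS5 and the F test by probe they lie above that of all probes and below that of the bright probes. These differences were not tested.

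Between iPS1 and iPS4, 10 member probes were called, 8 of them higher in iPS1, against 9.09% of all probes. They were both probes of Psmb8, those of Psmb9, Psmb10 and Psme1, and 1 each of Psmd7, Psmg2 and Psmg3, while Psmd11 and Nob1 were lower in iPS1. Between iPS1 and iPS5, 23 were called (13 higher and 10 lower in iPS1), against 18.3%. Between iPS4 and iPS5, 11 were called (7 higher and 4 lower in iPS4), against 10.8%. Among the bright probes the shares were 13% of members against 15.2% of all for iPS1 and iPS4, 27.5% against 30.7% for iPS1 and iPS5, and 11.6% against 17.3% for iPS4 and iPS5. All 5 probes of Psmb8, Psmb9, Psmb10 and Psme1 were called for iPS1 against iPS4 and for iPS1 against iPS5. These comparisons share the ES pool and, in part, the iPS1 arrays.

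Other genes of the interferon and class I pathways were set beside them. Irf1, a transcription factor that interferon induces and that drives immunoproteasome genes, had the same pattern as Psmb8: 1.68 and 1.66 in iPS1, 0.42 and 0.51 in iPS4, and -0.04 on both iPS5 arrays (F test, adjusted p = 5e-05). The lines were separate on all arrays, and a second Irf1 probe gave line means of 0.80 in iPS1, 0.10 in iPS4 and -0.06 in iPS5. Stat2, a signal carrier of type I interferon, was at 0.51 and 0.59 in iPS1 and between 0.08 and 0.16 on the other arrays (0.00248). Irf1, Stat2 and the genes of the next paragraph from Tap2 to H2-K1 were chosen after their values were seen. Of the 16 measured genes of the list of inducers (18 listed), 1 was called higher in the mean of the lines and 0 lower (limma; 6 in either direction at an unadjusted p under 0.05), against 5.21% and 4.95% of all genes by brightest probe. In iPS1, 4 of the 16 were called higher and 5 lower, against 21.5% and 21.2%. The gene that passed in the mean was Irf9, the DNA-binding partner of the STAT factors, at 0.55 ± 0.138 (adjusted p = 0.0325). Its line means were 0.56 in iPS1, 0.68 in iPS4 and 0.40 in iPS5, and its dimmer probe was at 0.14 and did not pass (0.0856). Ifngr1, a chain of the interferon-gamma receptor, was at -0.55 ± 0.293 (adjusted p = 0.0808). Irf8, another factor of this family, and Ifnar1, a type I interferon receptor chain, were at -0.11 (0.1) and 0.12 (0.108). In the F test 9 of the 16 passed, against 25.2% of all genes.

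Among genes of class I antigen processing, Tap2, the partner of Tap1 in the peptide transporter, was at 0.62 and 0.75 in iPS1, 0.09 and 0.19 in iPS4 and -0.01 on both iPS5 arrays (F test, adjusted p = 0.000915). Tap1 itself, which shares its upstream region with Psmb9, was at -0.04 and 0.18 in iPS1, -0.40 and -0.32 in iPS4, and -0.26 and -0.19 in iPS5 (0.0183). Tap1 was thus higher in iPS1 than in iPS4 and iPS5, but did not differ from the ES pool by the test (0.07, adjusted p = 0.39). Erap1, which trims peptides in the endoplasmic reticulum, was at 0.78 and 1.19 in iPS1 and between -0.18 and 0.27 on the other arrays (0.00172), with a second probe near 0 in all lines. H2-K1, a class I heavy chain, was at 0.29 and 0.27 in iPS1 and between -0.86 and -0.73 on the other arrays (0.000149). Its other 2 probes were below 0 in all lines, and class I heavy chains are near-identical copies whose probes may share signal. B2m, the light chain, ran against these: it was at -0.79 and -0.47 in iPS1, -0.42 and -0.08 in iPS4, and -0.02 and -0.36 in iPS5 (0.00296). Pdia3, an endoplasmic reticulum oxidoreductase of the peptide-loading complex, was near 0 in iPS1 and between 0.55 and 0.93 in iPS4 and iPS5 (0.000993). Tapbp, which bridges the transporter and class I molecules, was at -0.11 in the mean and did not pass (0.201). Of the 10 measured genes (11 listed), 7 passed the F test, against 25.2% of all genes, and the 1 called in the mean of the lines was Canx, a chaperone, at 0.37 ± 0.07 (adjusted p = 0.0302).

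**Figure D3:**
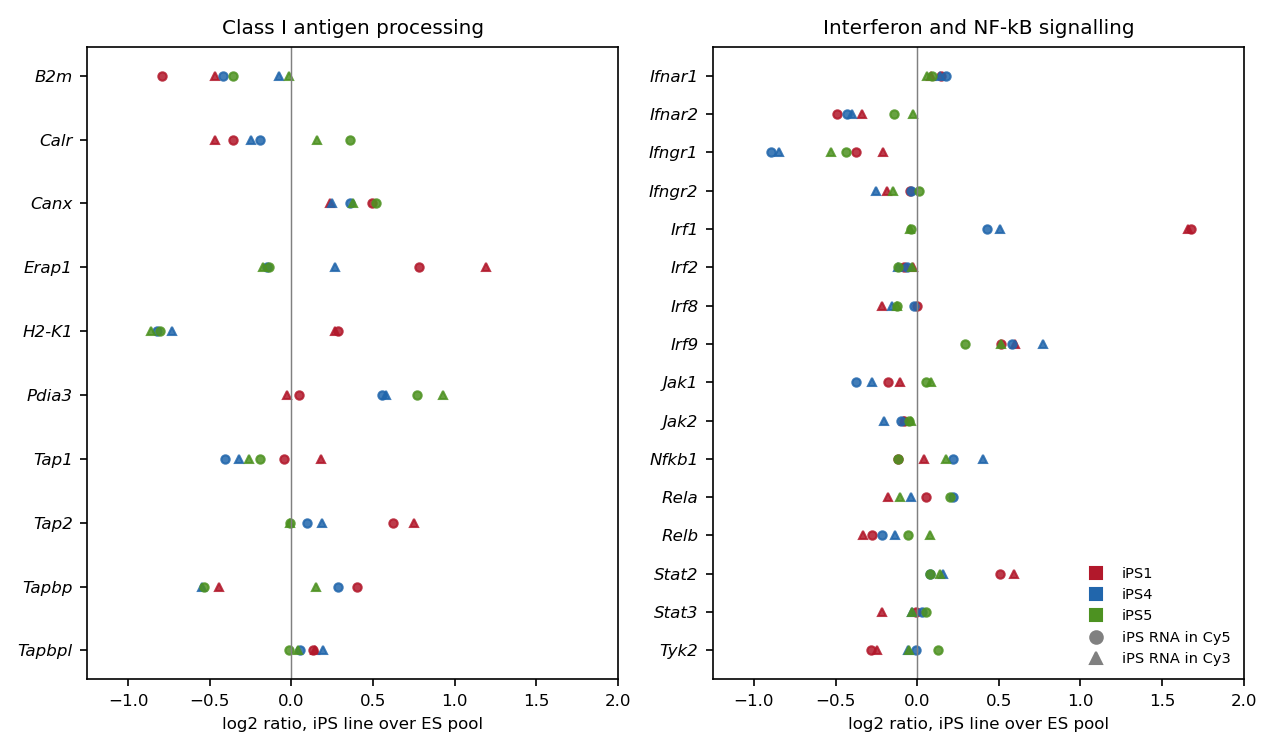
Log2 ratio of iPS line over ES pool on each array (x axis) for the measured genes of class I antigen processing and for those of interferon and NF-kB signalling (y axis), coloured by line, with the shape giving the dye of the iPS RNA. Irf1, Stat2, Tap2 and Erap1 have both iPS1 arrays above the arrays of the other lines, and B2m and Pdia3 do not.

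Markers of other cells were read beside these values. Leukocytes carry the immunoproteasome at all times, and 9 of 10 listed leukocyte markers were measured. None was called higher or lower in iPS1 by its brightest probe, against 21.5% and 21.2% of all genes. Of their 19 probes, 1 was called higher and 1 lower in iPS1. The summed level of the 9 genes, in units of normalized intensity, was 1341 to 1350 in iPS1 and 1387 to 1440 in iPS4. It was 1493 to 1499 in iPS5 and 1280 to 1409 in the ES pool. Only 5 of the 9 were above background in both channels of all arrays, so background forms part of these sums. The part of leukocyte RNA in the proteasome values was not tested. Ptprc (CD45), the defining marker, was above background in the iPS channel of 2 arrays and the ES channel of 1, and its ratio was between -0.03 and 0.06. Laptm5, the 1 leukocyte marker that passed the F test, was at -0.20 and -0.07 in iPS1 and between 0.60 and 1.25 in iPS4 and iPS5. Fibroblast markers, of feeder or donor cells, were below the ES pool for 14 of 14 genes in each line, and 13 of them passed in iPS1, against 21.2% of all genes. Their summed level was 2942 to 3103 in iPS1, 3452 to 3470 in iPS4, 4270 to 4391 in iPS5 and 5717 to 6009 in the ES pool, so iPS1, with the highest immunoproteasome values, had the lowest fibroblast signal. The part of fibroblast RNA in the proteasome values was not tested.

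In the mean of the 3 lines, 9 of the 86 probes were higher than in the ES pool, against 3.86% of all gene probes, and 2 were lower, against 3.82%. The higher probes belonged to Psma3, Psma5, Psma7, Psmb2, Psmc2, Psmc6, Psmd1, Psmd12 and Psmd14, and the lower to Psme3 and Psmf1. All of these changes were small, 1.16- to 1.25-fold for the brightest probes that rose. Of the 69 members above background in all channels, 13% were called higher, against 8.23% of all such probes, and 2.9% lower, against 8.21%. The median of the 86 probes was 0.05, against 0.00 for all gene probes. With limma, 0 probes passed in either direction without line iPS1, without line iPS4 or without replicate 1 of iPS5 (19, 15 and 21 higher at an unadjusted p under 0.05), against 9 higher and 6 lower without line iPS5. No probe passed either once the ES pool entered the fit as 1 more sample, where 11 were higher at an unadjusted p under 0.05.

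Of the alpha ring, which gates entry to the core, 8 genes were measured. Psma5 was at 0.40 and 0.16 in iPS1, 0.42 and 0.08 in iPS4, and 0.22 and 0.40 in iPS5, with a mean of 0.28 ± 0.0325 (SD, n = 3 lines; adjusted p = 0.0302). Psma7 was at 0.30 and 0.36 in iPS1, 0.14 and 0.34 in iPS4, and 0.30 and 0.25 in iPS5 (mean 0.28 ± 0.0469, adjusted p = 0.0327). Both were above the ES pool on 6 of 6 arrays. Psma6 was also above 0 on every array, from 0.04 to 0.29, but did not pass (0.17 ± 0.0271, adjusted p = 0.0502). A shared sign was common: by brightest probe, 4852 of 18295 genes had all 3 line means above 0 and 5379 had all 3 below. Of the 50 members, 17 and 11 did. Psma8, the alpha subunit of the testis proteasome, was at -0.31 and -0.54 in iPS1, -0.35 and -0.48 in iPS4, and -0.11 and -0.06 in iPS5. iPS5 differed from both other lines for Psma8 (F test, adjusted p = 0.0134). The other 4 alpha genes, Psma1, Psma2, Psma3 and Psma4, had means between -0.05 and 0.21 and were not called in the mean of the lines by their brightest probe. In single lines, Psma1 and Psma2 were called higher in iPS1 and Psma4 lower in iPS4.

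Of the beta subunits without a cutting site, Psmb2 was at 0.13 and 0.42 in iPS1, 0.08 and 0.32 in iPS4, and 0.26 and 0.08 in iPS5 (mean 0.21 ± 0.0513, adjusted p = 0.0466). This call was lost under 14 of 18 alternatives. Psmb3 was near 0 in the mean but differed among the lines, at 0.04 and -0.28 in iPS1, 0.09 and -0.23 in iPS4, and 0.10 and 0.36 in iPS5 (F test, adjusted p = 0.00755). Its iPS5 arrays were the highest, by a small margin on one of them, and its dye term also passed (adjusted p = 0.00534). A second Psmb3 probe had line means of -0.18 in iPS1, -0.16 in iPS4 and 0.21 in iPS5 (0.0122). Psmb1 and Psmb4 had means of -0.03 and 0.05.

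In the base of the 19S cap, the ATPase Psmc2 was at 0.37 and 0.30 in iPS1, 0.35 and 0.24 in iPS4, and 0.17 and 0.49 in iPS5 (mean 0.32 ± 0.0232, adjusted p = 0.0249). Psmd1, the largest scaffold subunit of the base, was at 0.14 and 0.43 in iPS1, 0.15 and 0.42 in iPS4, and 0.46 and 0.16 in iPS5 (mean 0.29 ± 0.0142, adjusted p = 0.0264). Both were above the ES pool on 6 of 6 arrays. The means of the lines for Psmd1 lay closer together than the 2 dyes of any line, and its dye term passed (adjusted p = 0.006). Psmc1 had line means that differed (F test, adjusted p = 0.024), at 0.01 and 0.32 in iPS1, 0.10 and 0.43 in iPS4, and 0.60 and 0.55 in iPS5. The remaining 6 base genes, Psmc3, Psmc4, Psmc5, Psmc6, Psmd2 and Psmd4, had means between -0.10 and 0.13 and were not called in the mean of the lines by their brightest probe. In single lines, by the same probes, Psmd4 was called lower in iPS1, Psmc4 and Psmc5 higher in iPS4, and in iPS5 Psmd2 higher and Psmc6 lower. The dimmer Psmd4 probe ran the other way. It was called higher in iPS1 (0.43, limma, adjusted p = 0.000281) and in iPS4 (0.40, 0.000411). That probe passed the F test (adjusted p = 0.0228), and the brightest did not (0.0614). The dimmer Psmc6 probe was called higher in iPS5 (0.32, limma, adjusted p = 0.00113). The dimmer Psmc2 probe was called lower in iPS1 and in iPS4, against its brightest probe.

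In the lid, Psmd14, the metalloprotease that removes ubiquitin chains from substrates, was at 0.27 and 0.20 in iPS1, 0.51 and 0.31 in iPS4, and 0.24 and 0.40 in iPS5 (mean 0.32 ± 0.0869, adjusted p = 0.0407). Psmd11, a lid scaffold subunit, was at -0.35 and -0.61 in iPS1, -0.12 and -0.36 in iPS4, and -0.44 and -0.14 in iPS5. It was below the ES pool on 6 of 6 arrays but did not pass in the mean (-0.34 ± 0.127, adjusted p = 0.0535), and its lines differed in the F test (adjusted p = 0.0363). Psmd7, the partner of Psmd14, was at -0.25 and -0.09 in iPS1, -0.03 and 0.13 in iPS4, and 0.17 and 0.11 in iPS5 (F test, adjusted p = 0.0187). Of its 2 dimmer probes, 1 was below 0 in iPS1 as well (-0.14). The other gave the opposite order, 0.63 and 0.97 in iPS1 and between -0.21 and 0.21 on the other arrays (F test, adjusted p = 0.000537). The other lid genes, Psmd3, Psmd6, Psmd8, Psmd12 and Psmd13, were not called in the mean of the lines by their brightest probe. Psmd8 was called lower and Psmd6 higher in iPS1 alone and in iPS4 alone, and Psmd3 higher in iPS5 alone.

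**Figure D4:**
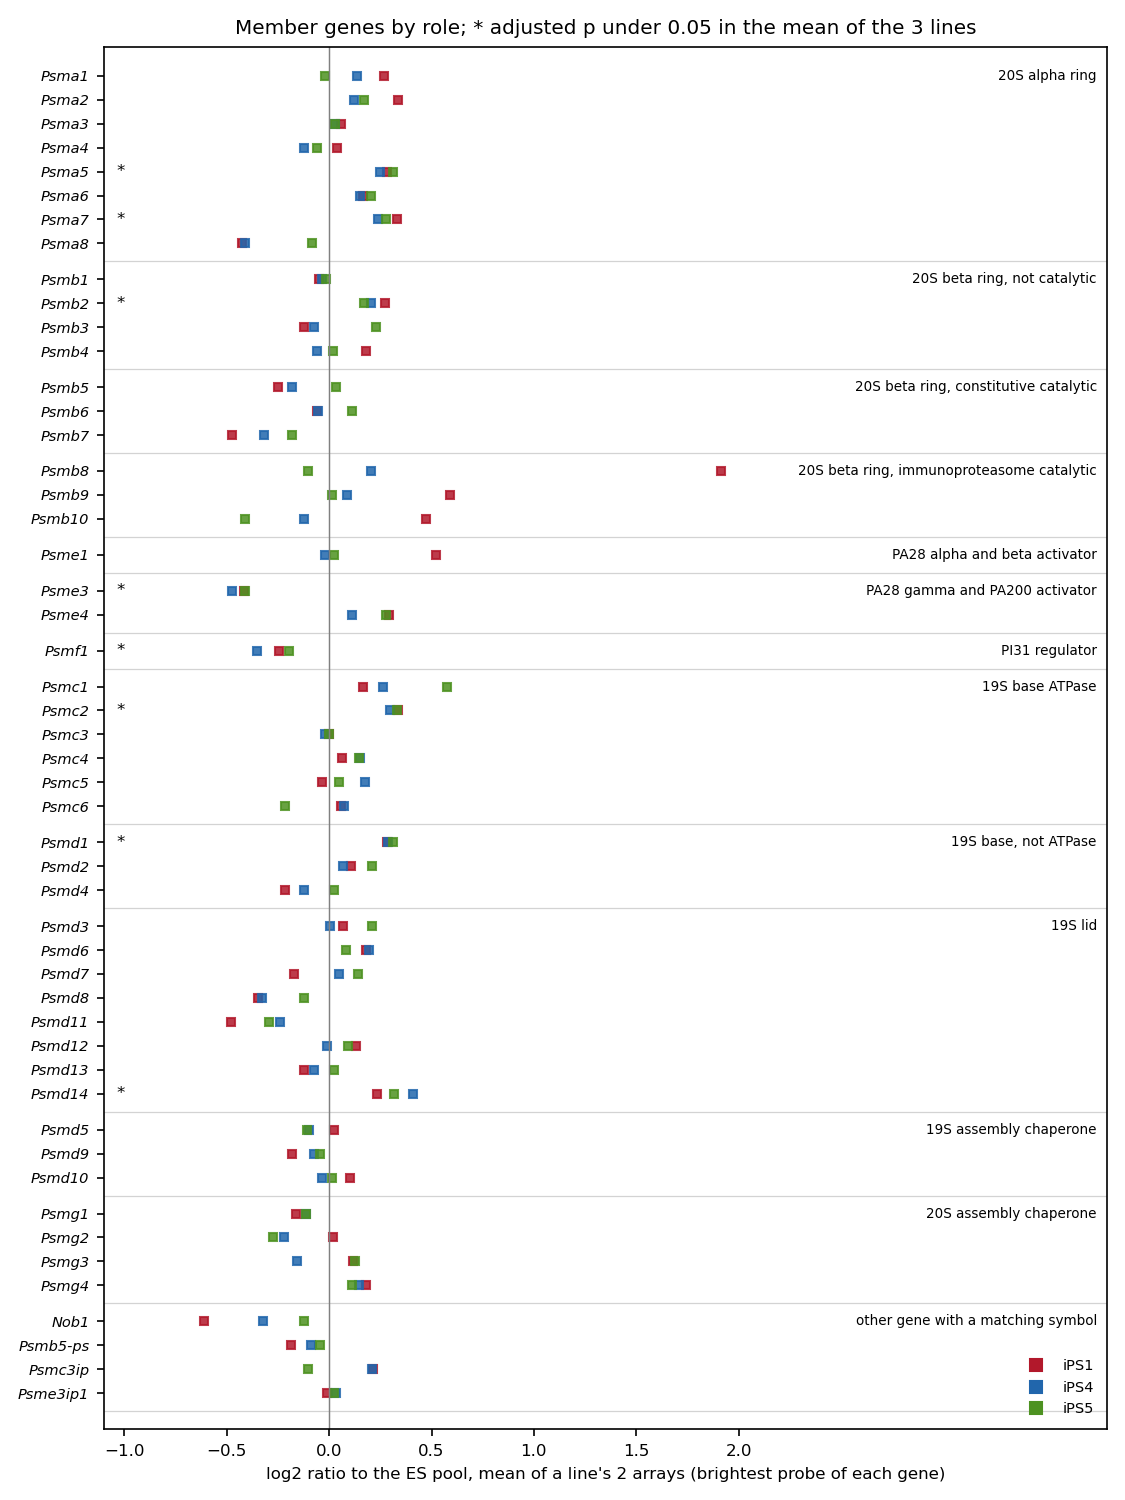
Log2 ratio to the ES pool (x axis) of the 50 member genes (y axis), grouped by role, for the brightest probe of each gene; squares are the means of the 2 arrays of each line and an asterisk marks an adjusted p under 0.05 in the mean of the 3 lines. Most genes lie within 0.5 of 0 in all lines, and the Psmb8 value of iPS1, 1.91, stands farthest from 0.

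Activators and inhibitors of the core other than PA28 alpha moved in both directions. Psme3, which forms the nuclear PA28 gamma activator, had the smallest p of all members in the mean of the lines. It was at -0.23 and -0.61 in iPS1, -0.26 and -0.69 in iPS4, and -0.66 and -0.16 in iPS5, below the ES pool on 6 of 6 arrays (mean -0.43 ± 0.0353, 0.74-fold, adjusted p = 0.0206). On each line the array with iPS RNA in Cy3 was the lower one (dye term, adjusted p = 0.00242), and the line means were nearly equal. Psmf1, which encodes the inhibitor PI31, was at -0.28 and -0.21 in iPS1, -0.41 and -0.30 in iPS4, and -0.32 and -0.07 in iPS5 (mean -0.27 ± 0.0817, adjusted p = 0.0481). Its 2 dimmer probes had means of 0.25 and 0.21 and were not called in the mean of the lines. In single lines, both were called higher in iPS1 (limma, adjusted p = 0.0106 and 0.00464) and in iPS4 (0.00102 and 0.000979). The brightest probe was called lower in the same lines (0.0208 in iPS1 and 0.00418 in iPS4). The fall of Psmf1 thus rests on 1 of 3 probes, and the 2 dimmer ones ran against it. Psme4, the PA200 activator, was at 0.23 by its brightest probe and between -0.21 and 0.31 by the other 4, and none was called in the mean of the lines. In single lines, its brightest probe was called higher in iPS1 (limma, adjusted p = 0.00317) and iPS5 (0.00737). A dimmer Psme4 probe was called lower in iPS1, iPS4 and iPS5 (0.0128, 0.0231 and 0.00388). The other dimmer ones were called higher in iPS1. Of these, 1 passed the F test (adjusted p = 0.00806), with its iPS channel above background on 4 arrays.

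Assembly chaperones of the core (Psmg1 to Psmg4) and of the cap (Psmd5, Psmd9 and Psmd10) had means between -0.16 and 0.15, and none was called in the mean of the lines. Psmg2 and Psmg3 passed the F test (adjusted p = 0.022 and 0.0258). Of the genes included by symbol only, Nob1, a nuclease of ribosome maturation, was at -0.59 and -0.64 in iPS1, -0.26 and -0.38 in iPS4, and -0.26 and 0.01 in iPS5 (F test, adjusted p = 0.00753). Psmc3ip, a factor of meiotic recombination, was at 0.11 and 0.32 in iPS1, 0.06 and 0.35 in iPS4, and 0.00 and -0.21 in iPS5 (0.0105). Psme3ip1 and Psmb5-ps were not called in the mean of the lines or in the F test.

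Probes of a gene disagreed elsewhere too. Psmc2 was called higher by its bright probe, while its dimmer probe had a mean of -0.25 (adjusted p = 0.101). In single lines, that dimmer probe was called lower in iPS1 (-0.37, limma, adjusted p = 0.000234) and in iPS4 (-0.27, 0.00101). The bright Psmc2 probe was called higher in the same lines (0.00178 in iPS1 and 0.00333 in iPS4), so the rise of Psmc2 rests on 1 of its probes. Psma3, Psmc6 and Psmd12 were called higher only by a dimmer probe, at 0.44, 0.45 and 0.26, against 0.04, -0.03 and 0.07 for the brightest. The Psma3 probe that was called read 0.96 and 1.00 on the Cy3 arrays of iPS1 and iPS4 and 0.07 on their Cy5 arrays. The 2 probes of Psmb8 had the same direction in iPS1, and Psmb9, Psmb10 and Psme1 had 1 probe each, so that no such check was possible for them. In the authors' deposited table, 6 of the 86 reporters have a p-value under 0.05, with 5 higher (Psmc2, Psmc6, Psmd14, Psma3 and Psma5) and 1 lower (Psme3), against 8.39% of all reporters.

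Genes that build or regulate the proteasome without a matching symbol were counted alongside. Of 15 measured maturation and associated factors (17 listed), 4 were called higher and 2 lower in the mean of the lines, against 5.21% and 4.95% of all genes. Pomp, the maturation protein of the core, was at 0.30 ± 0.0252 (adjusted p = 0.0269), between 0.25 and 0.34 on all arrays. Uchl5, a deubiquitinase of the cap, was at 0.35 ± 0.0252 (adjusted p = 0.023). Akirin2, which takes part in nuclear import of proteasomes, was at -0.34 ± 0.049 (0.029), but a dimmer Akirin2 probe was called the other way at 0.34 (0.0328). Ecpas, a scaffold of the proteasome, was at -0.38 ± 0.0815 (0.0322), with a second probe at -0.27 (0.0329). Uba6, a ubiquitin-activating enzyme and the only measured gene of its list (6 listed), was at 0.50 ± 0.1 (0.0284), with 4 other probes between -0.18 and 0.43 that were not called.

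The Nrf1 pathway, in which the factor Nfe2l1 is released by the protease Ddi2 and raises proteasome genes together with small Maf proteins, had all 9 genes measured, with 1 called higher and 2 lower, against 5.21% and 4.95%. Ddi2 was at 0.40 ± 0.106 (adjusted p = 0.0365) and Nfe2l1 at -0.22 ± 0.0272 (0.0382). Maff, a small Maf protein, was the farthest from 0, with -1.22 and -1.21 in iPS1, -1.65 and -1.67 in iPS4, and -1.53 and -1.29 in iPS5 (mean -1.43 ± 0.223, adjusted p = 0.0201). Mafg was at -0.21 ± 0.106 and did not pass (0.0941).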

How the data were processed

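Two-colour arrays compared 3 iPS lines (2 arrays each, opposite dye) with 1 ES pool. Scanner output was deposited, with an intensity for both channels of every spot. The authors' processed file holds a log2 ratio of iPS over ES per array, whose normalization is not given in the sources used here, and their final table holds a p-value and an averaged log2 ratio for each reporter, per the file headers.

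Intensities were background-corrected (normexp, offset 50) and loess-normalized within arrays in limma 3.58.1 under R 4.3.3, with no weight on control spots. The mean of the lines was tested against 0 on 3 line means. Single lines, pairs and the F test used 6 arrays with a dye term. P-values were Benjamini-Hochberg adjusted over 41174 gene probes, and those under 0.05 were called. A channel was above background if it exceeded percentile 95 of a dim control with 604 spots. Channel levels used Aquantile normalization. The fits were tested on simulated data. The single ES pool leaves its own spread out of every test, and the number of arrays limits precision.

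Symbols came from the platform table, updated through RefSeq GRCm38.p6. The members and lists were chosen with earlier results of these data known. Named were the immunoproteasome and PA28 genes and their constitutive counterparts, the 10 other members with the smallest p in the mean of the lines, the 5 next by F test, and up to 4 genes of each related list. Alternatives covered background correction, normalization, the authors' ratios, dim probes, probe averaging, and leaving out arrays or lines.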

Additional observations from a re-analysis of the deposited data

Results flagged for a closer look

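The following differences among the 3 lines passed the F test of the difference itself. The immunoproteasome and PA28 genes were higher in iPS1 than in both other lines, with adjusted p-values of 2.25e-05 for Psmb8, 0.00041 for Psmb10, 0.00196 for Psmb9 and 0.00197 for Psme1. Psmd11 was lowest in iPS1 (adjusted p = 0.0363), as was Nob1 (0.00753) and the brightest probe of Psmd7 (0.0187). A dimmer Psmd7 probe was highest in iPS1, at 0.80 (0.000537), so the direction of Psmd7 is not settled. iPS5 stood apart as the highest line for Psmb3 (0.00755), the lowest for Psmc3ip (0.0105) and the closest to the ES pool for Psma8 (0.0134). Groups of 2 arrays were too small to look for single arrays that stand apart.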

How the results depend on the processing

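The ratios of Psmb8, Psmb9, Psmb10 and Psme1 in iPS1 against the ES pool kept their direction and passed limma's threshold under all 13 alternatives, at 1.61 to 2.34, 0.51 to 0.69, 0.41 to 0.49 and 0.45 to 0.55. Their differences between iPS1 and the other lines kept their direction under all 13. They were not all significant: with offset 0, iPS1 against iPS4 missed the threshold for each of the 4 genes (adjusted p = 0.0994 for Psmb8, 0.183 for Psmb9, 0.154 for Psmb10 and 0.183 for Psme1). Over all 13, iPS1 against iPS4 lost its call in 1 for Psmb8, 5 for Psmb9, 3 for Psmb10 and 4 for Psme1. iPS1 against iPS5 lost it in 2 for Psmb9 and 3 for Psme1 (adjusted p up to 0.2522) and in 0 for Psmb8 and Psmb10.

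Counts of calls depended on the processing. With offset 0, the F test called 0 members (22 at an unadjusted p under 0.05), iPS1 22, iPS4 12 and iPS5 16 against the ES pool, iPS1 against iPS4 0 (11 unadjusted), iPS1 against iPS5 5 and iPS4 against iPS5 0 (17 unadjusted). With plain subtraction these were 4, 28, 19, 16, 1, 6 and 0 (20 unadjusted). With median centring they were 3, 15, 12, 0 (16 unadjusted), 3, 4 and 0 (7 unadjusted), with 4 members lower in the mean of the lines. Scaled arrays gave 5 lower, 6 for iPS1 against iPS4 and 5 for iPS4 against iPS5, and the authors' ratios gave 5 lower. Counted by gene with probes averaged, 5 were higher, 1 lower, 13 passed the F test, 33 in iPS1, 14 in iPS5, and 6, 15 and 7 between iPS1 and iPS4, iPS1 and iPS5, and iPS4 and iPS5. For the mean of the lines, a random block gave 21 higher and 10 lower. Counting the ES pool as a sample gave 0 and 0 (11 and 4 unadjusted). Without line iPS1 there were 0 and 0 (19 and 9), without line iPS4 0 and 0 (15 and 5), and without line iPS5 9 and 6.

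Leaving out 1 array at a time gave 0 to 13 members higher, 0 to 10 lower, 8 to 37 in the F test, 21 to 61 in iPS1, 18 to 52 in iPS4, 24 to 30 in iPS5, 5 to 22 between iPS1 and iPS4, 7 to 35 between iPS1 and iPS5, and 0 to 20 between iPS4 and iPS5. Leaving out iPS5 replicate 1 left 0 higher and 0 lower (21 and 7 unadjusted).

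Of 18 alternatives for the mean of the lines, the call was lost in 5 for Psme3, 6 for Psmc2, 7 each for Psma5 and Psma7, 8 for Psmd1, 9 for Psmd14 and 14 for Psmb2. Psmf1 lost it in 7 and was at 0.0643 with probes averaged. Calls were gained in 8 for Psmd11, 4 for Psmb7, 3 for Psma6, 2 each for Psma8 and Nob1 and 1 for Psmb5. Signs changed for values near 0. Psmb6 was at 0.0236 with median centring, 0.0277 with scaled arrays, 0.0093 with the authors' ratios, 0.0305 without line iPS1 and 0.0263 without line iPS4, and from -0.0679 to 0.0677 without single arrays. Psmd7 was at -0.0197 with the authors' ratios, -0.0161 without line iPS4, -0.061 without line iPS5 and from -0.0208 to 0.0319 without single arrays. Psmb3 was at -0.0175 with probes averaged, -0.098 without line iPS5 and from -0.042 to 0.0647 without single arrays. Psmb10 was at 0.0307 without line iPS4, 0.17 without line iPS5 and from -0.0498 to 0.0092 without single arrays. The cause of these changes was not tested.

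The slide and scan block was not run, since the files used here give neither. No paired analysis was possible because replicate numbers do not pair arrays of different lines. Low signal limits the 17 member probes not above background in every channel.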
